A study of Homo sapiens with 60 samples.

Results

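The aryl hydrocarbon receptor (AHR), its partner ARNT and 5 genes that the receptor is known to switch on were followed across every group of the series. The set was CYP1A1, CYP1B1, AHRR, TIPARP, AHR, ARNT and ALDH3A1, which is 7 of the 60675 genes of the deposited table, found by matching Ensembl identifiers to symbols. All 7 passed the filter on low counts and were among the 17129 genes tested. The cells were A549, an established human lung carcinoma line of epithelial type. RNA was taken after 24 h of treatment, and 60 libraries fell into 20 groups of 3. The vehicle was DMSO, at 0.1% per the sample labels and 2% per the design text. Wortmannin, an inhibitor of PI3-kinase, was given at 10 µM as positive control. The other 18 groups received hot-water extracts of 6 crude drugs at a high, a medium and a low dose. Doses were the same for the gingers, fresh (ZRR, from Zingiberis Rhizoma Recens) and dried (ZR, from Zingiberis Rhizoma), for ZF (the jujube Zizyphi Fructus) and for PT (Pinelliae Tuber), all given at 500, 100 and 20 µg/mL. CR, the extract of Coptidis Rhizoma, was given at 130, 26 and 5.2 µg/mL. SR, made from Scutellariae Radix, had doses of 230, 46 and 9.2 µg/mL, so neither matches the others in dose. The design text names an IC20, a concentration that gives 20% inhibition, with a limit of 500 µg/mL. Whether the high doses were alike in toxicity was not tested.

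AHR is a ligand-activated transcription factor of the bHLH-PAS family that rests in the cytosol in a complex with HSP90 chaperones and PTGES3. When it binds a ligand, such as a dioxin, a polycyclic aromatic hydrocarbon from smoke, or one of many plant and tryptophan-derived compounds, it moves to the nucleus, pairs with ARNT and binds DNA elements built around the letters GCGTG. In airway epithelium it is best known for inducing the cytochrome P450 enzymes CYP1A1 and CYP1B1, and it also induces AHRR and TIPARP, which dampen its own activity.

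The promoters of the feedback and enzyme genes are shown because these genes moved together across the extracts. Promoters from RefSeq (GRCh38.p14) were matched for 5 of the 7 genes, namely CYP1A1, AHRR, TIPARP, AHR and ARNT, while CYP1B1 and ALDH3A1 were not matched. Each line gives 250 bases that end just before a transcription start, written 5′ to 3′ on the strand of the gene, with GCGTG on either strand in capitals (CACGC is the same core read on the other strand). The CYP1A1 stretch is chr15:74725529-74725778 on the minus strand, the AHRR stretch chr5:321464-321713 on the plus strand, and the TIPARP stretch chr3:156674340-156674589 on the plus strand.
CYP1A1: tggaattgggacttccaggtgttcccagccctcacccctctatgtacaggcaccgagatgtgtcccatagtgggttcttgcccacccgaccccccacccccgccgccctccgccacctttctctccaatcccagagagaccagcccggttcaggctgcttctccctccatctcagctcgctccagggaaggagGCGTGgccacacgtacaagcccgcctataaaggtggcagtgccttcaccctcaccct
AHRR: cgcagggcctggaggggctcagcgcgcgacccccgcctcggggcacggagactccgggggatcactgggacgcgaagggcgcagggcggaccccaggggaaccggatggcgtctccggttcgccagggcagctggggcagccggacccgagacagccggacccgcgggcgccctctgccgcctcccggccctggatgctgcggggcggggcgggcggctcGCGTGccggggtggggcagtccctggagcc
TIPARP: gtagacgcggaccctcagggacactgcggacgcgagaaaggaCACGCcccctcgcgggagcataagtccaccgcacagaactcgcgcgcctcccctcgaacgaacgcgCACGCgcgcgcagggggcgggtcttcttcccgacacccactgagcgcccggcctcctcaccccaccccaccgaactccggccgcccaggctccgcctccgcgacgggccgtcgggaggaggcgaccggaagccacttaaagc
The core was searched on both strands in windows of 250 bases before and 50 bases after a start. It occurred 1 time for CYP1A1, 1 time at the AHRR start shown and 2 times at another AHRR start, 2 times at the TIPARP start shown and 0 times at the other 2 TIPARP starts. AHR held 1 match and ARNT 0. Of 35116 RefSeq promoter windows of the same length, 36.5% held at least 1 GCGTG, so the core alone is common. The longer form TNGCGTG, which contains the core, was found in 5.51% of all windows and, among these genes, only at the AHRR start shown. A match describes the letters and is not a measured binding site.

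In vehicle, levels per transcript length (CPM per kb, with CPM the counts scaled to normalised library size), spanned a wide range. Library sizes were multiplied by a normalisation factor (TMM). It was 0.889 to 0.946 in the CR libraries at the low and medium doses and 0.978 to 1.069 in all others. ALDH3A1, an aldehyde dehydrogenase, stood at 301 ± 22.9 CPM per kb (SD, n = 3, as in every group below). CYP1B1 was at 10.4 ± 0.294, TIPARP at 8.54 ± 0.462, AHR at 7.13 ± 0.327 and ARNT at 7.02 ± 0.315 CPM per kb. AHRR, at 0.422 ± 0.0372, and CYP1A1, at 0.375 ± 0.0762, were far lower. CYP1A1 thus rested on 22 to 24 counts per vehicle library and AHRR on 42 to 66, against 1032 to 1395 for CYP1B1, and their fold changes carry wider errors. All levels below are in CPM without division by length and are compared only within a gene.

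Library totals ran from 17.4 to 36.5 (in units of 1e6 counts). Nothing in the labels tells if the 3 replicates of a group came from different cultures, and the p-values therefore cover just the variation among these libraries, which may be technical. The leading number of the sample codes differs between vehicle and every treated group, and what it marks cannot be told apart from treatment in comparisons with vehicle. High against low dose of an extract, and ginger against ginger, lie within one such number. Comparisons with vehicle also share the same 3 vehicle libraries. Fewer responding cells and less RNA per cell cannot be told apart in bulk RNA. Epithelial keratins were abundant (KRT8 at 3268 and KRT18 at 2484 CPM in vehicle), the leukocyte markers CD3E and PTPRC were at 0 counts in vehicle, and the summed level of 4 endothelial markers was at most 0.166 CPM there. The 5 epithelial markers were EPCAM, KRT8, KRT18, KRT19 and CDH1, and nearly all of their sum in vehicle came from KRT8 and KRT18. Their summed level was 5740 to 5860 CPM in vehicle, 4220 to 4730 with ZR and 3770 to 3790 with CR at the high dose. Its part in the results below was not tested. CD68, a marker of macrophages, rose with ZR and CR, and the summed level of 4 leukocyte markers was 4.7 to 7.65 CPM in vehicle, 9.56 to 11.6 with ZR and 8.74 to 10.1 with CR, and its part was not tested either.

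At the high doses, CR changed most of the set, both gingers raised the same 4 of its genes, SR and PT raised fewer, and ZF changed none by the test used. With CR, 5 of 7 rose and 1 fell, where 18.5% of all tested genes rose and 16.7% fell. With ZRR, 4 of 7 rose and 0 fell (2.25% of all genes rose and 1.77% fell), and with ZR also 4 rose and 0 fell (2.91% and 2.44%). These 4 were CYP1A1, CYP1B1, AHRR and TIPARP with either ginger. With SR, CYP1B1, TIPARP and ALDH3A1 rose, 3 of 7 against 13.0% of all genes (10.9% fell). With PT, CYP1B1 and ALDH3A1 rose, 2 of 7 against 1.07% (0.327% fell). With ZF, edgeR called 0 of 7 (0.00584% of all genes), DESeq2 also called 0, and 1 had an unadjusted p under 0.05. Wortmannin raised CYP1B1, AHRR, TIPARP and ALDH3A1, 4 of 7 against 13.4% of all genes (11.9% fell). The median log2 difference from vehicle over the 7 genes was 1.52 with CR, 1.07 with ZR, 0.70 with ZRR, 0.40 with wortmannin, 0.34 with PT, 0.21 with SR and 0.01 with ZF, while that over all tested genes was at most 0.01 in each.

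**Figure D1:**
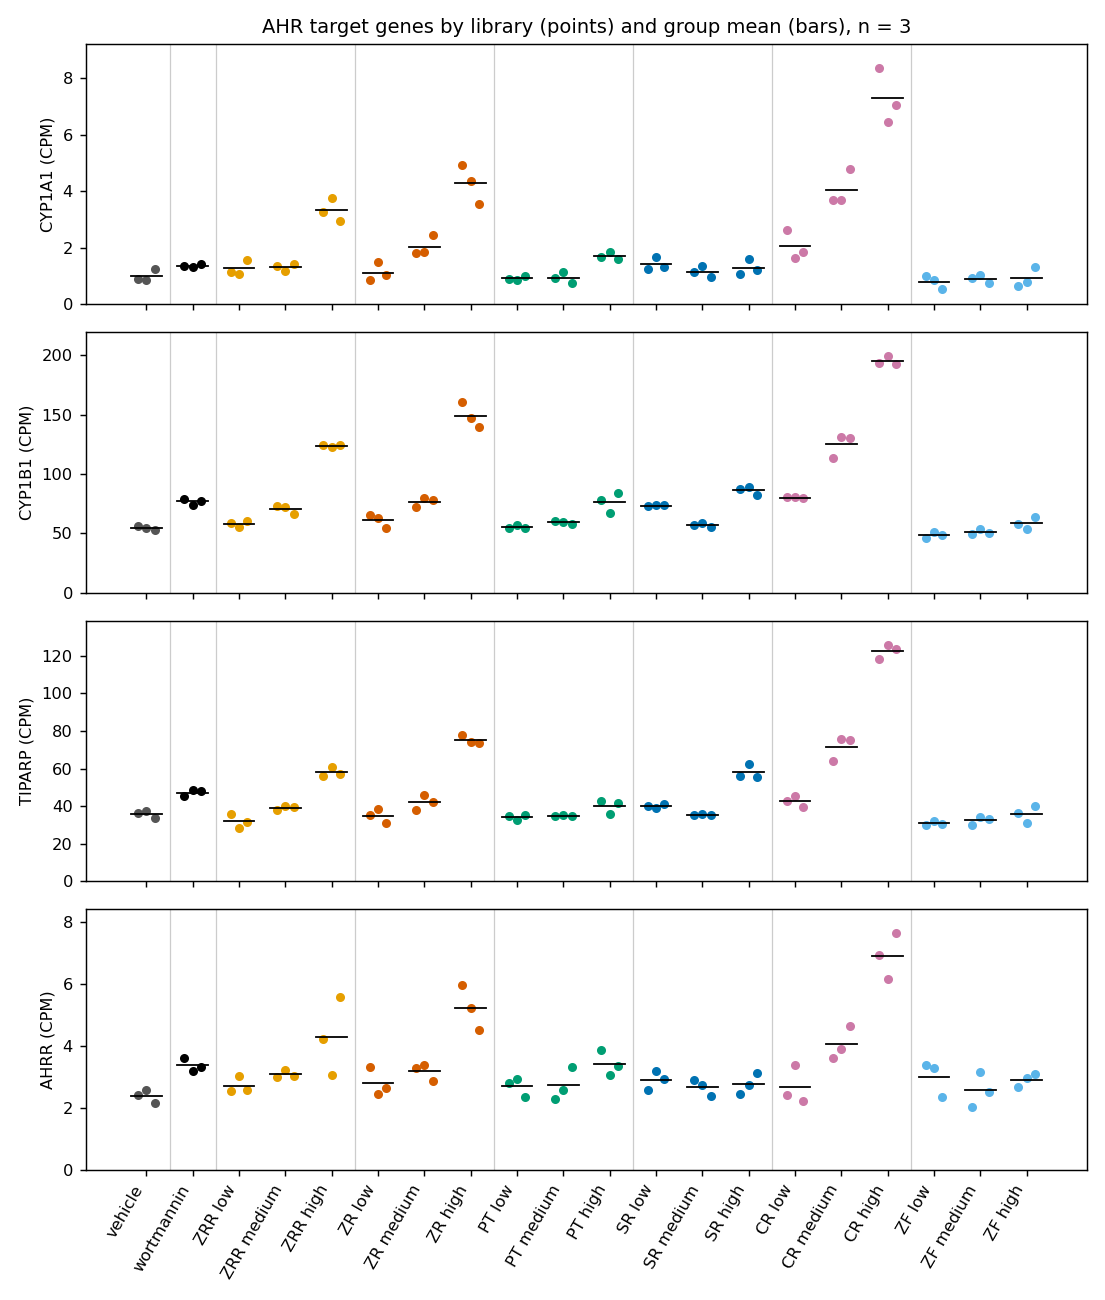
Level in CPM (linear axes from 0) of CYP1A1, CYP1B1, TIPARP and AHRR in each of the 60 libraries (points) with group means (bars, n = 3). All 4 genes are highest in the 3 CR high-dose libraries, where CYP1B1 lies between 192.5 and 199.2 CPM against 53.3 to 56.4 CPM in vehicle.

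CYP1B1, a cytochrome P450 that oxidises polycyclic hydrocarbons and oestrogens (chr2:38066973-38109902, minus strand, GRCh38), had the narrowest errors of the induced genes. Its level was 56.4, 54.7 and 53.3 CPM in the vehicle libraries and 193.8, 199.2 and 192.5 CPM with CR at the high dose. It was 160.3, 147.0 and 139.6 CPM with ZR and 124.8, 122.6 and 124.0 CPM with ZRR at 500 µg/mL. Every one of these 9 treated libraries lay far above all 3 vehicle libraries. The log2 difference from vehicle was 1.83 ± 0.06 (SE) with CR (edgeR adjusted p = 4.11e-28), 1.44 ± 0.06 with ZR (1.08e-22) and 1.18 ± 0.06 with ZRR (6.04e-19). In both ginger comparisons CYP1B1 ranked 1 of 17129 genes by p-value, and with CR it ranked 9. SR at 230 µg/mL gave 87.8, 89.5 and 82.0 CPM, and PT at 500 µg/mL gave 78.0, 67.3 and 84.0 CPM. All of these also lay above vehicle, by 0.66 ± 0.06 with SR (adjusted p = 1.09e-11) and 0.48 ± 0.06 with PT (adjusted p = 1.05e-06). The PT call was lost when the fit held the PT and vehicle groups alone (adjusted p = 0.0533). Wortmannin gave 79.3, 73.8 and 77.7 CPM, higher by 0.49 ± 0.06 (adjusted p = 3.76e-08). ZF at 500 µg/mL gave 57.7, 54.1 and 63.6 CPM, which overlapped vehicle, and the 95% interval of the log2 difference was -0.03 to 0.22.

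CYP1A1, the P450 most often used as a readout of the receptor (chr15:74719542-74725610, minus strand), showed the largest folds on a low base. Its level was 0.914, 0.863 and 1.24 CPM in vehicle, 8.37, 6.45 and 7.06 CPM with CR, 4.93, 4.35 and 3.56 CPM with ZR and 3.27, 3.76 and 2.94 CPM with ZRR at the high doses. None of these treated libraries overlapped vehicle. The log2 difference was 2.87 ± 0.20 with CR (adjusted p = 9.15e-17), 2.10 ± 0.21 with ZR (1.56e-10) and 1.73 ± 0.22 with ZRR (1.04e-07). PT at 500 µg/mL gave 1.67, 1.85 and 1.62 CPM, all above vehicle, but the difference of 0.78 ± 0.23 was not called (adjusted p = 0.0743). It was called without the low-count filter (0.78, adjusted p = 0.0355), with the length slope of each library as a covariate (0.83, adjusted p = 0.0475), and without 3 libraries that lay far out on that slope (0.78, adjusted p = 0.0377). SR, wortmannin and ZF were not called, with 95% intervals of -0.11 to 0.88, -0.01 to 0.95 and -0.61 to 0.41 on the log2 scale.

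TIPARP, a mono-ADP-ribosyltransferase that modifies AHR and limits its activity (chr3:156673235-156706770, plus strand), followed CYP1B1 in most groups. Its level was 36.4, 37.2 and 33.5 CPM in vehicle and 118.3, 126.0 and 123.8 CPM with CR at the high dose. It was 78.1, 74.1 and 73.5 CPM with ZR, 55.9, 60.9 and 57.1 CPM with ZRR and 56.0, 62.2 and 55.5 CPM with SR. Each of these 12 libraries lay above all vehicle libraries, and ZRR and SR overlapped each other. The log2 difference was 1.78 ± 0.08 with CR (adjusted p = 2.37e-24), 1.07 ± 0.08 with ZR (5.78e-15), 0.70 ± 0.08 with ZRR (7.24e-09) and 0.70 ± 0.08 with SR (8.36e-10). Wortmannin gave 45.2, 48.6 and 48.0 CPM, higher by 0.40 ± 0.08 (adjusted p = 8.17e-05). PT and ZF were not called, with intervals of 0.01 to 0.33 (adjusted p = 0.249) and -0.15 to 0.17.

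AHRR encodes a repressor that competes with AHR for ARNT (chr5:304176-438291, plus strand). Its level was 2.41, 2.59 and 2.17 CPM in vehicle, 6.94, 6.15 and 7.64 CPM with CR, 5.96, 5.21 and 4.51 CPM with ZR and 4.22, 3.05 and 5.57 CPM with ZRR at the high doses. The 9 treated libraries lay above vehicle, and those of ZRR were the most scattered. The log2 difference was 1.52 ± 0.17 with CR (adjusted p = 1.38e-10), 1.12 ± 0.17 with ZR (6.23e-06) and 0.85 ± 0.18 with ZRR (0.00125). Without ZRR replicate 3 at the high dose the ZRR difference was 0.61 and its call was lost (adjusted p = 0.0681). Wortmannin gave 3.61, 3.19 and 3.33 CPM, and its difference of 0.49 ± 0.18 (adjusted p = 0.0362) was lost when any one of the 6 libraries was left out and without the low-count filter. PT, SR and ZF were not called, with intervals of 0.17 to 0.88 (adjusted p = 0.121), -0.16 to 0.58 and -0.09 to 0.64.

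The receptor and its partner moved little. AHR (chr7:16916359-17346152, plus strand) was at 51.4, 50.5 and 47.1 CPM in vehicle and at 38.4, 38.1 and 37.1 CPM with CR at the high dose. It was 35.0, 38.0 and 36.9 CPM at the medium and 39.1, 41.0 and 35.4 CPM at the low dose of CR. All 9 CR libraries lay below all vehicle libraries, and the 3 doses overlapped one another. AHR fell by 0.39 ± 0.09 at the high dose (adjusted p = 3.36e-04), by 0.44 ± 0.09 at the medium (1.59e-04) and by 0.36 ± 0.09 at the low dose (0.00327). High against low dose of CR differed by -0.03, with an interval of -0.20 to 0.15. With ZR the differences of -0.27 at the high and -0.29 at the medium dose were not called (adjusted p = 0.0618 and 0.0714), although DESeq2 called both (adjusted p = 0.0352 and 0.0328). With the other extracts and wortmannin AHR was called at no dose. With PT at the high dose AHR did not overlap vehicle (-0.24 ± 0.09, edgeR adjusted p = 0.157). That difference was called without the low-count filter (-0.23, edgeR adjusted p = 0.0366). ARNT (chr1:150809705-150876768, minus strand) spanned 25.3 to 37.6 CPM over all 60 libraries and edgeR called it in none of the 48 comparisons as reported, although it was called under some alternatives, such as with ZR at the medium dose when the fit held the compared groups alone (-0.21, adjusted p = 0.0255). Its group means on the log2 scale spanned 0.21 in all, against 0.51 for AHR, 1.99 for TIPARP, 2.00 for CYP1B1 and 3.08 for CYP1A1.

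**Figure D2:**
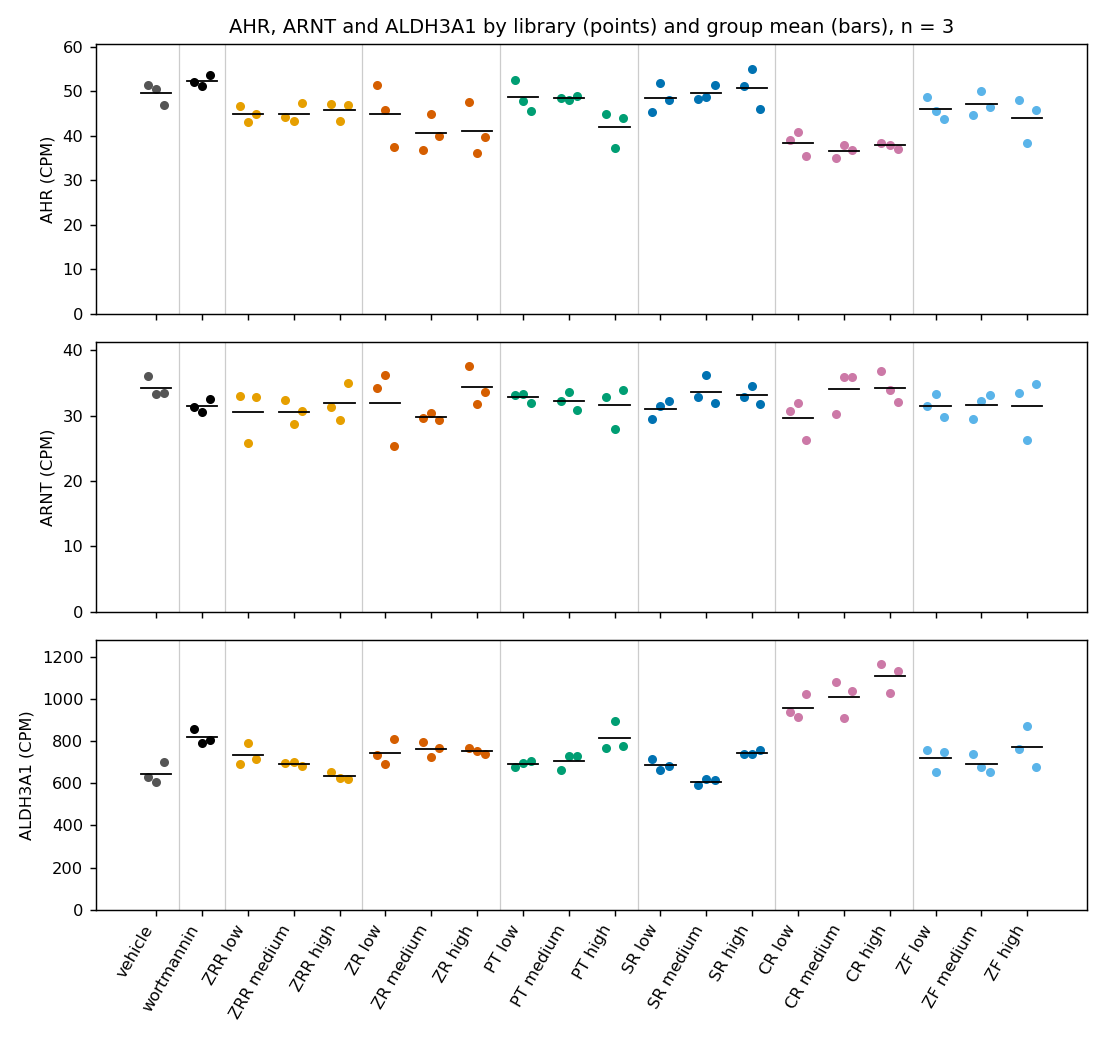
Level in CPM (linear axes) of AHR, ARNT and ALDH3A1 in each of the 60 libraries (points) with group means (bars, n = 3). AHR lies at 35.0 to 41.0 CPM in the 9 CR libraries against 47.1 to 51.4 CPM in vehicle, and ALDH3A1 lies at 911 to 1164 CPM in those 9 libraries.

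ALDH3A1, an aldehyde dehydrogenase that is highly expressed in A549 and is counted among the receptor's targets (chr17:19737984-19748943, minus strand), rose at all 3 doses of CR. Its level was 628.7, 607.2 and 700.9 CPM in vehicle and 1164, 1026 and 1134 CPM with CR at the high dose. It was 1082, 911 and 1039 CPM at the medium and 938, 914 and 1024 CPM at the low dose of CR. All 9 CR libraries lay above vehicle, by 0.78 ± 0.07, 0.65 ± 0.07 and 0.57 ± 0.07 on the log2 scale from high to low dose (adjusted p = 1.37e-12, 9.40e-10 and 8.78e-08). High against low dose of CR differed by 0.21 ± 0.07 (adjusted p = 0.0267), a call lost in 4 of 6 fits that left out 1 of these libraries. With the gingers ALDH3A1 was not called, at 655.4, 624.1 and 619.2 CPM for ZRR and 765.0, 755.1 and 738.9 CPM for ZR at 500 µg/mL. The 95% intervals of the difference from vehicle were -0.17 to 0.12 for ZRR and 0.08 to 0.37 for ZR (adjusted p = 0.0596). ALDH3A1 with ZR at the high dose was called under 5 alternatives, among them no low-count filter (0.23, adjusted p = 0.0182) and the compared groups alone (0.22, adjusted p = 0.00817). PT gave a rise of 0.34 ± 0.07 (adjusted p = 0.00749), lost without PT replicate 2 at the high dose or without vehicle replicate 1 or 2. SR gave 0.21 ± 0.07 (adjusted p = 0.0306), lost in 5 of 6 fits that left out 1 library. Wortmannin gave 859.6, 792.6 and 806.9 CPM, a rise of 0.34 ± 0.07 (adjusted p = 2.32e-04).

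At the medium doses CR again raised 5 of 7 and lowered 1, where 12.1% of all tested genes rose and 11.1% fell. ZR raised CYP1A1 and CYP1B1, 2 of 7 against 0.444% of all genes, and ZRR raised CYP1B1, 1 of 7 against 0.146%. CYP1B1 was 113.1, 131.1 and 130.4 CPM with CR at 26 µg/mL, 72.3, 79.8 and 78.0 CPM with ZR and 72.7, 72.3 and 66.3 CPM with ZRR at 100 µg/mL. These 9 libraries lay above all vehicle libraries. The log2 differences were 1.19 ± 0.06 (adjusted p = 1.50e-20), 0.48 ± 0.06 (1.41e-05) and 0.36 ± 0.06 (0.00174). By p-value CYP1B1 ranked 1 of 17129 genes with ZR and 8 with ZRR at this dose. The CYP1A1 call with ZR, at 1.81, 1.84 and 2.46 CPM and a difference of 1.04 ± 0.23 (adjusted p = 0.0138), was lost without vehicle replicate 1, without vehicle replicate 2 or without ZR replicate 3 at the medium dose. With ZR at this dose DESeq2 called 4 of the 5 genes to which it gave an adjusted p, and for all 7 the unadjusted p of edgeR was under 0.05. TIPARP (0.24, DESeq2 adjusted p = 0.0473), ALDH3A1 (0.24, DESeq2 adjusted p = 0.0341) and AHR were called by DESeq2 and without the low-count filter, but not by edgeR as reported. With PT, SR and ZF at the medium doses edgeR and DESeq2 each called 0 of 7, and 0 had an unadjusted p under 0.05 (0.0175%, 0.0% and 0.0117% of all genes were called by edgeR).

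At the low doses CR raised CYP1A1, CYP1B1, TIPARP and ALDH3A1 and lowered AHR, 4 and 1 of 7, where 8.51% of all genes rose and 9.15% fell. CYP1B1 was 80.7, 80.3 and 79.7 CPM there, higher than vehicle by 0.55 ± 0.06 (adjusted p = 8.20e-09), and CYP1A1 was 2.65, 1.66 and 1.87 CPM, higher by 1.04 ± 0.23 (adjusted p = 0.00115). The TIPARP difference of 0.26 ± 0.08 (adjusted p = 0.0208) was lost without vehicle replicate 3 or without CR replicate 2 at the low dose. With ZRR, ZR, PT and ZF edgeR and DESeq2 called 0 of 7 at the low dose, and 1, 2, 0 and 3 had an unadjusted p under 0.05 (0.111%, 0.00584%, 0.0% and 0.0117% of all genes were called by edgeR). With the length slope as a covariate CYP1B1 was called for ZRR (0.22, adjusted p = 0.0145) and ZR (0.24, adjusted p = 0.0174).

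SR did not follow the order of its doses for CYP1B1. The level was 72.7, 73.9 and 73.8 CPM at 9.2 µg/mL, 57.2, 58.7 and 55.2 CPM at 46 µg/mL and 87.8, 89.5 and 82.0 CPM at 230 µg/mL. The 3 groups did not overlap one another, and the middle dose overlapped vehicle. At the low dose CYP1B1 was higher than vehicle by 0.42 ± 0.06 (adjusted p = 4.82e-04), and it was the only gene of 17129 (0.00584%) that edgeR called in that comparison. It was also the only gene called for medium against low dose of SR (0.00584%), at -0.37 ± 0.06 (adjusted p = 0.0098), a call lost without SR replicate 3 at the medium dose (-0.35, adjusted p = 0.145). TIPARP was 39.9, 38.9 and 41.1 CPM at the low and 35.4, 36.0 and 35.2 CPM at the medium dose of SR. These did not overlap, but the difference of -0.17 ± 0.08 was not called (adjusted p = 0.998).

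**Figure D3:**
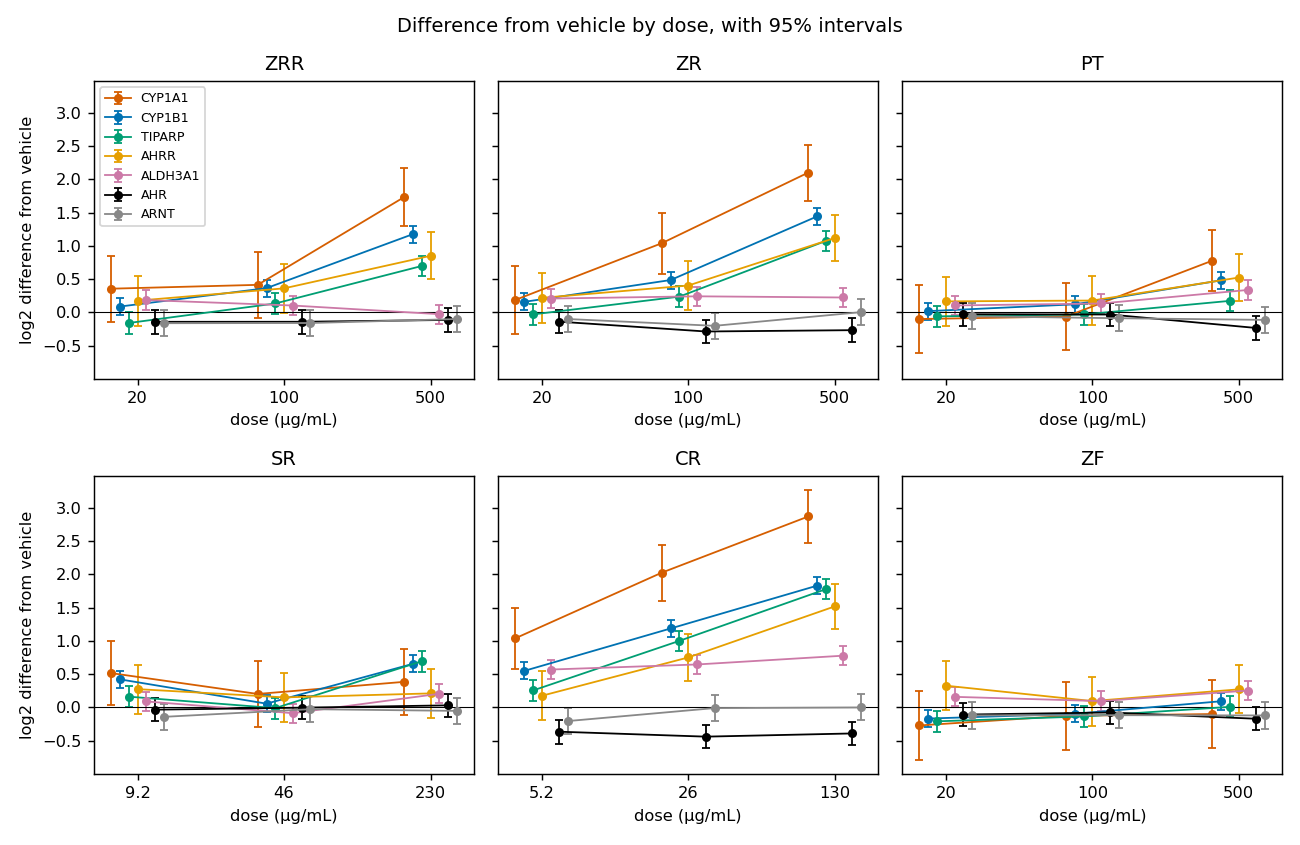
Log2 difference from vehicle (vertical axis) with its 95% interval against the dose in µg/mL (log-spaced axis), 1 panel per extract and 1 line per gene, from the edgeR fit. CYP1A1 rises to 2.87 with CR and 2.10 with ZR, ZF intervals of CYP1A1 include 0 at each dose, and CYP1B1 with SR is higher at 9.2 than at 46 µg/mL.

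High against low dose, which lies within one sample-code number and does not use vehicle, was tested next. With ZRR, CYP1A1, CYP1B1, AHRR and TIPARP rose, 4 of 7 against 2.47% of all tested genes, and with ZR the same 4 rose (2.46%). With CR these 4 and ALDH3A1 rose, 5 of 7 against 13.1%. CYP1B1 was higher at the high dose by 1.09 ± 0.06 with ZRR (adjusted p = 6.49e-18), 1.29 ± 0.06 with ZR (5.53e-21) and 1.28 ± 0.06 with CR (1.32e-21). TIPARP differed by 0.86 ± 0.08, 1.11 ± 0.08 and 1.52 ± 0.08 in the same order, and CYP1A1 by 1.38 ± 0.21, 1.92 ± 0.21 and 1.83 ± 0.18. AHRR differed by 0.67 ± 0.18 with ZRR (adjusted p = 0.0150), which was lost without ZRR replicate 3 at the high dose (0.43, adjusted p = 0.298) or without ZRR replicate 1 or 3 at the low dose, and by 0.90 ± 0.17 with ZR and 1.34 ± 0.16 with CR. With SR, CYP1B1 rose by 0.23 ± 0.06 (adjusted p = 0.00447) and TIPARP by 0.53 ± 0.08 (4.94e-07), 2 of 7 against 11.1%. With PT, CYP1B1 alone rose, by 0.46 ± 0.06 (adjusted p = 2.34e-06), 1 of 7 against 0.397%. That call was lost when the fit held the 2 PT groups alone (adjusted p = 0.0559). With ZF edgeR and DESeq2 called 0 of 7 and 2 had an unadjusted p under 0.05 (0.0% of all genes were called). The ZF difference of CYP1B1 was 0.26 ± 0.06 (adjusted p = 0.964), and it was called with the length slope as a covariate (0.27, adjusted p = 3.18e-04).

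**Figure D4:**
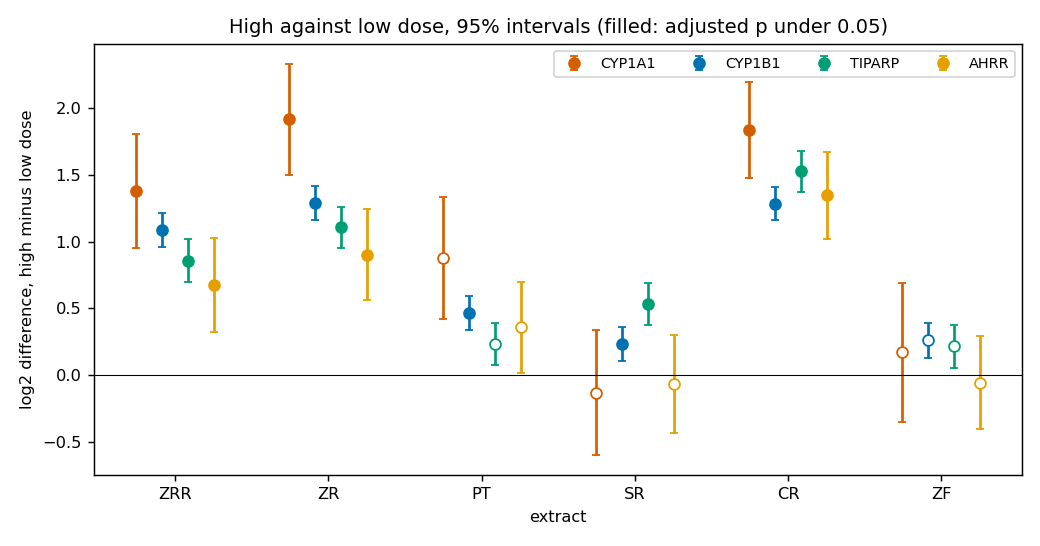
Log2 difference of high against low dose (vertical axis) with its 95% interval for CYP1A1, CYP1B1, TIPARP and AHRR in each of the 6 extracts, with filled points where the edgeR adjusted p was under 0.05. All 4 are filled for ZRR, ZR and CR, CYP1B1 alone for PT, and CYP1B1 and TIPARP for SR.

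The rise came in different steps. For CR, CYP1A1, CYP1B1, AHRR and TIPARP rose both from low to medium (4 of 7, 1.6% of all genes rose) and from medium to high dose (4 of 7, 3.59%). CYP1B1 gained 0.64 ± 0.06 in either step (adjusted p = 4.92e-10 and 4.78e-11). The AHRR step from low to medium, 0.58 ± 0.17 (adjusted p = 0.0478), was lost with the replicate number as a block (0.58, adjusted p = 0.0568) and without CR replicate 1 or 3 at the low dose or replicate 2 or 3 at the medium dose. For ZR the 4 genes rose from medium to high dose (4 of 7, 2.41%), and CYP1B1 rose from low to medium (1 of 7, 0.0117%) by 0.33 ± 0.06 (adjusted p = 0.0182), a call lost without ZR replicate 2 or 3 at the medium or replicate 3 at the low dose. The AHRR step from medium to high with ZR, 0.72 ± 0.16 (adjusted p = 0.00514), was lost without ZR replicate 1 at the high or replicate 3 at the medium dose. For ZRR, CYP1A1, CYP1B1 and TIPARP rose from medium to high dose (3 of 7, 0.811%), and edgeR called 0 of 7 from low to medium (0.0175% called), where DESeq2 called 1 and the unadjusted p of 2 was under 0.05. For SR, CYP1B1, TIPARP and ALDH3A1 rose from medium to high (3 of 7, 11.0%), and for PT CYP1B1 did (1 of 7, 0.163%), a call lost when the fit held these 2 PT groups alone. For ZF edgeR and DESeq2 called 0 of 7 in either step (0.0% of all genes), and 2 from medium to high and 0 from low to medium had an unadjusted p under 0.05. For PT from low to medium both tools called 0 of 7 and 0 had an unadjusted p under 0.05 (0.0175%).

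Fresh and dried ginger were compared at matched doses. At 500 µg/mL CYP1B1 and TIPARP were lower with ZRR than with ZR, 2 of 7 against 0.391% of all genes. The CYP1B1 difference was -0.27 ± 0.06 (adjusted p = 0.0131) and the TIPARP difference -0.38 ± 0.08 (adjusted p = 0.00262), and for both genes all 3 ZRR libraries lay below all 3 ZR libraries. The CYP1B1 call was lost without ZR replicate 1 at the high dose (-0.21, adjusted p = 0.198) or without ZRR replicate 2 (-0.26, adjusted p = 0.0559). CYP1A1 differed by -0.37, with an interval of -0.73 to -0.01 (adjusted p = 0.754), and AHRR by -0.27, with an interval of -0.59 to 0.05. At 100 and 20 µg/mL edgeR and DESeq2 called 0 of 7 (0.00584% and 0.0% of all genes were called), and 1 and 0 had an unadjusted p under 0.05. For the difference between the gingers in the rise from low to high dose, 0 of 7 were called by edgeR and DESeq2 (0.14% of all genes were called) and 3 had an unadjusted p under 0.05. The difference of the 2 dose effects, ZRR minus ZR, had an interval of -0.37 to -0.02 for CYP1B1 and -0.47 to -0.03 for TIPARP. Both were called once the length slope entered the fit, at -0.24 for CYP1B1 (adjusted p = 0.0195) and -0.30 for TIPARP (adjusted p = 0.00997). ALDH3A1 at 500 µg/mL (-0.25) was not called, but it was under 4 alternatives, among them no low-count filter (-0.26, adjusted p = 0.00924).

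Other extracts given at 500 µg/mL were compared directly, although their sample codes begin with different numbers, which cannot be told apart from the extract. PT was lower than ZR for CYP1A1, CYP1B1, AHRR and TIPARP (4 of 7, 1.91% of all genes) and lower than ZRR for CYP1A1, CYP1B1 and TIPARP (3 of 7, 2.09%). The CYP1B1 difference was -0.96 ± 0.06 from ZR (adjusted p = 1.76e-16) and -0.69 ± 0.06 from ZRR (adjusted p = 7.75e-12). ALDH3A1 was higher with PT than with ZRR (1 of 7, 2.21%), by 0.36 ± 0.07 (adjusted p = 6.29e-04). Against ZF, ZR was higher for these 4 genes (4 of 7, 2.59%), and CYP1B1 differed by 1.35 ± 0.06 (adjusted p = 1.27e-21). ZRR was higher than ZF for the same 4 (4 of 7, 2.35%) and lower for ALDH3A1 (1 of 7, 1.73%), and CYP1B1 differed by 1.08 ± 0.06 (adjusted p = 8.25e-18). PT was higher than ZF for CYP1B1 (1 of 7, 0.21%), by 0.39 ± 0.06 (adjusted p = 1.28e-04), a call lost when the fit held these 2 groups alone. The AHRR calls for PT against ZR (-0.59, adjusted p = 0.0195) and ZRR against ZF (0.58, adjusted p = 0.0380, libraries overlapping) and the ALDH3A1 call for ZRR against ZF (-0.28, adjusted p = 0.0128) were each lost in at least 2 fits that left out 1 library.

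Ordered by mean level, CYP1B1 was highest in CR high (195.2 ± 3.55 CPM), then ZR high (149.0 ± 10.5), CR medium (124.9 ± 10.2), ZRR high (123.8 ± 1.11), SR high (86.4 ± 3.91) and CR low (80.2 ± 0.505). ZR high did not overlap either of its neighbours in this order, while CR medium overlapped ZRR high. The lowest means were those of ZF low (48.9 ± 2.44), ZF medium (51.3 ± 1.89) and vehicle (54.8 ± 1.54). Counted from the highest mean, vehicle ranked 20 of 20 groups for AHRR, 18 for ALDH3A1, 15 for CYP1A1 and 13 for TIPARP. Of 19 pairs of neighbours in the order, 12 overlapped for CYP1B1, 16 for TIPARP, 17 for CYP1A1, 18 each for AHRR and ALDH3A1, and all 19 for AHR and for ARNT.

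Across the 20 group means of log2 CPM, CYP1B1 varied with TIPARP (Pearson r = 0.97) and with CYP1A1 (0.97), and CYP1A1 with TIPARP (0.922), while CYP1B1 and AHRR gave 0.917. Without CR high these were 0.962, 0.954, 0.878 and 0.874. AHR gave r = -0.592 against CYP1B1, -0.748 against ALDH3A1 and -0.525 against TIPARP. Over the 17 groups without CR these were -0.332, -0.342 and -0.163. Against CYP1A1 and AHRR, AHR gave -0.707 and -0.571 over 20 groups and -0.488 and -0.507 without CR. ALDH3A1 and CYP1B1 gave 0.60 over 20 groups but 0.152 over the 17 without CR. These are descriptions, since the 3 doses of an extract are related groups and share a sample-code number.

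**Figure D5:**
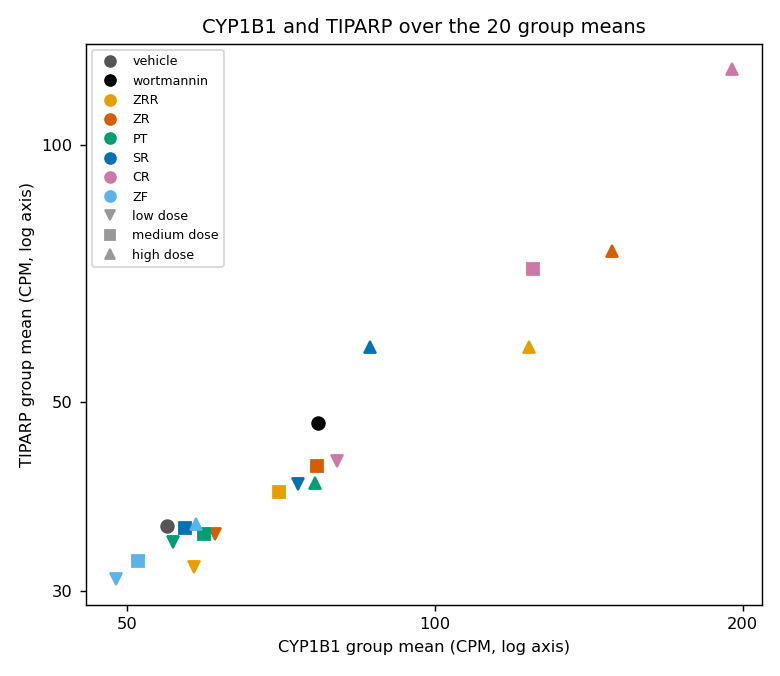
Mean level of CYP1B1 (horizontal) against TIPARP (vertical), both in CPM on log axes, for the 20 groups, with colours for extracts and shapes for doses. Points run from ZF low at 48.9 and 30.9 CPM to CR high at 195.2 and 122.7 CPM, and SR high at 86.4 and 57.9 CPM has TIPARP at the level of ZRR high with less CYP1B1.

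Among 12412 genes with a mean log2 CPM of at least 1, those most like CYP1B1 over the 20 group means were the long non-coding RNA LINC00511 (r = 0.929), STK32B (0.927), CLMP (0.924), MPV17L (0.919) and APOL6 (0.912). They moved less than CYP1B1 itself, with CR by 0.55 ± 0.06 for LINC00511, 0.39 ± 0.06 for STK32B and 0.92 ± 0.06 for CLMP on the log2 scale. For CYP1A1 the list was the tetraspanin TSPAN15 (0.918), LINC00511 (0.897), CA8 (0.897), DCTD (0.886) and GREM1 (0.881), and TSPAN15 differed from vehicle by 0.53 ± 0.05 with CR, 0.50 ± 0.05 with ZR and 0.06 ± 0.05 with SR. For TIPARP, added after its values were seen, it was CLMP (0.977), the BMP antagonist GREM1 (0.963), the lysyl oxidase LOXL2 (0.961), the receptor kinase ROR1 (0.952) and PRAG1 (0.952). GREM1 rose by 3.04 ± 0.12 with CR, from 5.04 CPM in vehicle. For AHR the nearest was CRIM1 (0.946) and for ARNT SYNE1 (0.953).

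Of 16 other genes that the receptor is reported to induce, 9 were tested and the rest, CYP1A2 among them, were below the filter on low counts. At the high dose 4 rose and 3 fell with CR, 4 rose and 1 fell with SR, 3 rose and 1 fell with ZRR, 3 rose with ZR, and 0 were called with PT and ZF, while with wortmannin 0 rose and 2 fell. Over all tested genes 18.5% rose and 16.7% fell with CR, 13.0% and 10.9% with SR, 2.25% and 1.77% with ZRR, 2.91% and 2.44% with ZR, and 13.4% and 11.9% with wortmannin. With PT 1.07% of all genes rose and 0.327% fell, and with ZF 0.00584% were called. The median log2 difference was 0.17 with CR and 0.04 with ZR. STC2, a secreted glycoprotein that other stress pathways also induce, went from 27.2 ± 2.01 CPM in vehicle to 163.9 CPM with CR (log2 2.59 ± 0.07) and rose by 2.20 ± 0.07 with SR, 1.00 ± 0.07 with ZRR and 1.08 ± 0.07 with ZR, but fell by 1.81 ± 0.08 with wortmannin. The growth factor EREG rose by 1.11 ± 0.06 with CR, 1.00 ± 0.06 with SR, 0.49 ± 0.06 with ZR and 0.30 ± 0.06 with ZRR. The efflux pump ABCG2 rose by 0.16 ± 0.04 with ZRR and fell by 0.40 ± 0.04 with CR. PTGS2, the inducible prostaglandin synthase, rose by 1.02 ± 0.12 with SR and fell by 0.56 ± 0.13 with ZRR. PTGS2 was also called with CR and ABCG2 with SR, each with the same sign against vehicle and against low dose (signs not given here). NQO1, which NRF2 also induces and which was singled out after its values were seen, rose by 0.24 ± 0.07 with CR (1861 against 1572 CPM, adjusted p = 0.00397) and was not called with either ginger. SR, which raised STC2 and EREG, gave 1.08, 1.60 and 1.21 CPM for CYP1A1, which was not called.

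Among chaperones of the cytosolic complex, HSP90AA1, HSP90AB1 and PTGES3 all fell with SR, with CR and with wortmannin. Of all tested genes 10.9%, 16.7% and 11.9% fell in that order. HSP90AA1 differed by -0.77 ± 0.09 with SR and -0.54 ± 0.08 with CR, and HSP90AB1 by -0.56 ± 0.04 and -0.37 ± 0.04. With either ginger HSP90AB1 fell while HSP90AA1 and PTGES3 were not called, and with PT and ZF none of these 3 genes was called. Of all tested genes 1.77% fell with ZRR and 2.44% with ZR. With PT 1.07% rose and 0.327% fell, and with ZF 0.00584% were called. These chaperones serve many clients besides AHR.

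Of 9 relatives that share the bHLH-PAS fold with AHR or ARNT, 7 were tested, and 5 rose and 1 fell with CR, 4 rose with SR and 1 rose with ZR (all genes, 18.5% rose and 16.7% fell with CR, 13.0% rose with SR and 2.91% with ZR). The clock factor NPAS2 rose by 0.71 ± 0.07 with CR, 0.34 ± 0.07 with ZR and 0.28 ± 0.07 with SR. ARNT2, the close relative of ARNT, went from 36.4 ± 2.00 to 50.8 CPM with CR (0.48 ± 0.08, adjusted p = 9.69e-07) where ARNT was not called (-0.19 to 0.20). SIM2 rose by 0.54 ± 0.09 and BMAL1 by 0.50 ± 0.09 with CR. The 1 gene that fell, singled out after its values were seen, was EPAS1, by 0.23 ± 0.09. Of 8 enzymes listed for the metabolism of tryptophan-derived ligands, 5 were tested, and 2 fell with CR and 1 with SR (16.7% and 10.9% of all genes fell). Among those that fell was kynureninase KYNU, by 0.19 ± 0.05 with CR.

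Targets of NRF2, the antioxidant regulator, are given because they overlap with those of AHR. All 10 were tested, and 6 rose with CR, 5 with ZRR, 2 with ZR and 4 with SR (1 fell), while 6 fell with wortmannin. Of all genes 18.5%, 2.25%, 2.91% and 13.0% rose with these extracts in that order, 10.9% fell with SR and 11.9% fell with wortmannin. The haem oxygenase HMOX1 rose by 0.80 ± 0.07 with SR, 0.45 ± 0.07 with CR, 0.40 ± 0.07 with ZRR and 0.35 ± 0.07 with ZR. GCLM, a subunit of glutathione synthesis, rose by 0.32 ± 0.05 with ZRR and 0.20 ± 0.05 with ZR, the cystine transporter SLC7A11 by 0.33 ± 0.07 with SR and the thioredoxin reductase TXNRD1 by 0.18 ± 0.04 with CR. GCLM was also called with SR (sign not given here). Wortmannin, which raised CYP1B1 and TIPARP, lowered HMOX1 by 0.67 ± 0.07 (log2 difference -0.67). Among 8 targets of the hypoxia factor HIF, which also pairs with ARNT, 2 rose and 3 fell with CR and 2 rose and 1 fell with SR, counts to be read against 18.5% and 16.7% of all genes with CR and 13.0% and 10.9% with SR. VEGFA rose by 0.85 ± 0.05 with CR and 0.80 ± 0.05 with SR and NDRG1 by 0.57 ± 0.05 with CR, while ADM and EGLN3 fell with CR by 0.38 ± 0.07 and 0.51 ± 0.09. VEGFA was also called with ZRR and ZR, ADM with ZR and EGLN3 with SR. Each of these had the same sign at the high dose against vehicle and against low dose (signs not given here).

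Overlapping genes are listed because the sources used here do not give the strand setting of the counting. Whether their reads were counted for the members was not tested. CYP1B1-AS1, on the other strand at the CYP1B1 locus, rose with CR (1.54 ± 0.40, adjusted p = 0.00192). It went from 0.164 to 0.515 CPM, and CYP1B1 was at 195.2 CPM with CR. TIPARP-AS1, at 0.245 CPM in vehicle, was not called at any high dose. PDCD6, the neighbour that forms read-through transcripts with AHRR, was at 94.0 ± 3.21 CPM in vehicle and 88.7 CPM with CR (-0.08 ± 0.07, adjusted p = 0.374) where AHRR rose. The read-through gene PDCD6-AHRR itself matched no identifier of the deposited table and has no value here.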

How the data were processed

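RNA from A549 cells was sequenced as directional mRNA libraries with paired reads. The deposited table holds estimated counts per gene, made by the authors with STAR 2.7.3a and RSEM 1.3.3 after FastQC 0.11.9 and Trim Galore 0.6.5, on GRCh38, per the submitters' processing notes. The sources used here name neither the annotation release nor the strand setting. Of 269 columns, 60 matched samples by name and 209 were not used. Counts were rounded to whole numbers (9.06% of values were not whole). Of 60675 identifiers, 56558 got a symbol from a current gene table and 497 from GENCODE 29, and the 3620 without a name held 0.0579% of counts. No 2 libraries were identical.

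One edgeR 4.0.16 quasi-likelihood fit (R 4.3.3, TMM, filterByExpr by group) covered all 60 libraries and gave 48 comparisons, with Benjamini-Hochberg adjustment over 17129 genes within each and a threshold of 0.05. "Rose", "fell" and "called" mean past that threshold. Intervals are 95%. The fit was also run on simulated counts with the same spread for every gene, a check of the code that bears on none of the results. Alternatives were DESeq2 1.42.0, its size factors, no low-count filter, the compared groups alone, a replicate block, a transcript-length slope as covariate, leaving out each library, and, chosen after seeing the data, leaving out 3 libraries more than 3 MAD from the median length slope. These 3 were ZRR replicate 2 and ZR replicate 3 at the low dose and ZF replicate 2 at the high dose.

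The members and gene lists were chosen with earlier results of these data known. All 7 members are named. From other lists, at most 4 genes are named that were called in the same direction for high dose against vehicle and against low dose in at least 1 extract, the neighbours being named whole and the receptor complex whole but for an item not reported here, and for likeness the 5 highest Pearson r.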

Additional observations from a re-analysis of the deposited data

Results flagged for a closer look

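The change from low to high dose differed between extracts for 5 results, by a test of the difference itself in the edgeR fit. CR and ZF share a leading sample-code number but not their doses. The CR change exceeded the ZF change by 1.66 ± 0.32 for CYP1A1 (log2, edgeR adjusted p = 1.54e-04), 1.02 ± 0.09 for CYP1B1 (2.14e-12), 1.40 ± 0.24 for AHRR (2.22e-05) and 1.31 ± 0.11 for TIPARP (9.58e-13), 4 of 7 genes against 5.76% of all tested genes. The PT change exceeded the SR change by 1.01 ± 0.32 for CYP1A1 (edgeR adjusted p = 0.0333), 1 of 7 against 5.12%. That call was lost without the low-count filter (adjusted p = 0.0624) and in 6 fits that left out 1 library, and neither extract alone was called for CYP1A1.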

How the results depend on the processing

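Over 336 results, 100 of them called, 4489 alternative values were computed. In 4326 the side of the threshold was as reported, and so was the direction except in 217 of them, which were uncalled values that changed sign. Another 79 lost a call and 83 gained one with the same direction, 31 of the 83 with the length slope, 14 without the low-count filter and 14 without the libraries far out on the slope. ARNT with CR at the medium dose was -0.01 and became 0.16 (adjusted p = 0.022) with the length slope as a covariate. For PT high against vehicle, 2 of 7 were called, and 4 without the low-count filter, 5 with the length slope, 0 with the compared groups alone, and 1 to 2 when 1 library was left out (1 without vehicle replicate 1 or 2 or PT high replicate 2). CYP1B1 was then 0.48 with the compared groups alone, and CYP1A1 0.78 without the filter, 0.83 with the length slope and 0.78 without the 3 libraries far out on it. For PT high against low, 1 was called, and 3 without the filter, 3 with the length slope, 3 without the far libraries and 0 with the compared groups alone. There CYP1B1 was 0.47 with the compared groups alone, and CYP1A1 0.88 without the filter, 0.92 with the length slope and 0.88 without the far libraries. ZF high against vehicle had 1 called without the filter, and ZF high against low 1 with the length slope (CYP1B1, 0.27). The compared groups alone ended 16 calls. Those of CYP1B1 were the PT high dose against vehicle, low and medium, PT against ZF and ZR medium against low (0.33). Those of AHRR were high against low with ZRR (0.67) and ZR (0.90), CR medium against low (0.58), PT against ZR (-0.59), ZRR against ZF (0.57) and ZR against ZF (0.84). Those of CYP1A1 were CR medium against low (0.98) and ZRR against ZF (1.83), and those of ALDH3A1 PT high against vehicle (0.34), CR high against low (0.19) and ZRR against ZF (-0.29). The cause was not tested. DESeq2 gave 331 of 336 values.

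Pairing by replicate number was looked at over all pairs of libraries from different groups. Deviations of same-numbered libraries had a median correlation of 0.00124 (-0.402 to 0.466), and 19 of 60 libraries were closest to their own number. Pairing within one leading sample-code number was not examined separately. With the replicate block, the 1 call that changed was AHRR for CR medium against low (0.58, adjusted p = 0.0568).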
